A study of Homo sapiens with 12 samples.

Results

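The 53 genes described here encode the machinery of cell division: mitotic cyclins and kinases, the spindle checkpoint, the ubiquitin ligase that ends mitosis, kinetochore proteins, spindle motors, cytokinesis proteins and the transcription factors of the G2 and M phases. They were listed by symbol and matched by Ensembl identifier to the rows of the count table. All 53 were found among its 61541 rows, and all 53 were among the 16768 genes that passed the filter on low counts. RNA had been sequenced in 4 groups of 3 libraries from cells labelled A549, a cell line established from a lung adenocarcinoma, at 14 days post transduction. The solo control carried the non-targeting guide gNTC1 (genotype label NTC KO) and was grown by itself, here called solo, and the co-cultured control carried the same guide. The solo knockout (TS-KO, genotype label TYMS KO) had been edited in TYMS, whose product thymidylate synthase supplies the dTMP needed to copy DNA. The co-cultured knockout carried the same edit and was grown in the presence of parental A549, per the design text, which says that the partner restored proliferation. The co-culture comparison asks in which direction mitotic transcripts differ in that state. No group had a drug treatment, per the labels. The sources used here do not state what the control was co-cultured with, whether partner cells were removed before RNA was taken, whether each genotype is 1 clone or a pool, or whether the 3 libraries of a group came from separate cultures. The p-values below therefore measure the spread between these libraries, which may be technical.

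Library totals ranged from 14921371 to 35723762 counts. TYMS stood at 90.3 to 100.8 CPM (counts per 1e6 counts, scaled by TMM) in the solo control and 90.5 to 95.7 in the co-cultured control, against 20.3 to 21.4 in the solo knockout and 10.7 to 11.4 in the co-cultured knockout. The control libraries went against the A549 label at the CDKN2A locus, which A549 is known to have lost: CDKN2A had 921 to 2127 counts in each control library and 0 to 4 in each knockout library, and MTAP, its neighbour, had 801 to 1571 against 7 to 21. The epithelial gene EPCAM differed in the same way, with 1533 to 2870 counts in the control libraries and 5 to 15 in the knockout libraries. Of the other epithelial markers, KRT8, KRT18, KRT19 and CDH1 had lower means in both knockout groups. KRT7 went the other way, with means of 1910 and 1816 CPM in the solo and co-cultured control and 5952 and 6063 in the solo and co-cultured knockout. The summed level of 5 NRF2 target genes listed as high in A549 was 3373 to 4354 CPM in the control libraries and 6376 to 8615 in the knockout libraries. The edit of TYMS and any other difference between the control and knockout populations cannot be told apart, and this holds for every comparison of knockout with control below. Of 8 markers of blood, endothelial and fibroblast cells, 1 or 2 reached a group mean of 1 CPM, CD3E was at 0 counts in all 12 libraries, and PTPRC, COL1A2 and DCN had at most 2 counts in any library. The summed level of these 8 markers ran from 12.5 to 25.2 CPM over the 12 libraries, most of it from COL1A1. CD68 was 2.57 to 3.58 CPM in the co-cultured knockout and at most 0.931 CPM elsewhere, and the part of other cells in the results was not tested.

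Cells entering mitosis accumulate cyclin B, which activates the kinase CDK1. Aurora and Polo-like kinases then build the spindle, and kinetochores attach chromosomes to it. The spindle checkpoint holds back the anaphase-promoting complex until every chromosome is attached, after which the complex destroys securin and cyclin B and the cell divides. The transcripts of these proteins rise together late in the cell cycle under FOXM1, MYBL2 and the MuvB complex, which acts through a promoter element called the CHR, often with CCAAT boxes nearby. They are therefore widely used as a readout of how many cells in a culture are dividing. In bulk RNA, fewer dividing cells and less of these transcripts per cell cannot be told apart.

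The shared promoter elements can be seen in the sequences themselves. RefSeq promoter windows on GRCh38.p14, 250 bases upstream of the most upstream start, were at hand for 45 of the 53 genes. The CHR was searched as TTTGAA and, as its other common form, TTTAAA. On either strand it occurred in 32 of these 45 windows (71.1%) and in 22.2% of all 27326 promoter windows of that length. Within 150 bases of the start it occurred in 27 (60%), against 12.8% of all windows. The letters CCAAT, on either strand, occurred in 32 (71.1%) against 33%, and 2 or more copies in 20 (44.4%) against 10.0%. Both elements together occurred in 26 windows (57.8%) against 7.9%. A match is a description of the letters and not evidence of binding. BUB3, BIRC5, TPX2, TTK, KNL1, AURKA, FOXM1 and UBE2C were not among the matched genes. The 6 stretches of 100 bases below hold a CHR match, overlap no annotated exon, and belong to genes whose values are given further on, among them genes that differed between the groups and CDK1, which was not called. They read 5′ to 3′ on the strand of the gene, with CHR and CCAAT matches on either strand in capitals.
MKI67 (chr10:128126424-128126523, minus strand): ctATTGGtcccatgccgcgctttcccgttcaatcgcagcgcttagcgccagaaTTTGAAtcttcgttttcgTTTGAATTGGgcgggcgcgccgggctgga
TOP2A (chr17:40417995-40418094, minus strand): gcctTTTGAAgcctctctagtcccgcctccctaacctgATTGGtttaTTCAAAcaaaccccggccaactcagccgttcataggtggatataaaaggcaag
CDK1 (chr10:60778153-60778252, plus strand): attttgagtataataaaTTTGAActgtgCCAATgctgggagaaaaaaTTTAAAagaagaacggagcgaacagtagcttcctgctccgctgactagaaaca
FZR1 (chr19:3506061-3506160, plus strand): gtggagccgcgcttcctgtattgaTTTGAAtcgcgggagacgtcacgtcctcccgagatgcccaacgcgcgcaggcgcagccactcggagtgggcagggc
ECT2 (chr3:172750564-172750663, plus strand): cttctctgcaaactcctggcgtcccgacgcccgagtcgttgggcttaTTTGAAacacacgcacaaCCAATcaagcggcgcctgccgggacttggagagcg
CENPF (chr1:214603033-214603132, plus strand): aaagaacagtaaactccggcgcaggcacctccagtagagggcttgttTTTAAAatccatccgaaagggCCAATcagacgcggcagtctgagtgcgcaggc
In MKI67 the second CHR match and a CCAAT match on the other strand share a base. TOP2A, CDK1 and MKI67 each hold 2 CHR matches in the stretch shown, and the FZR1 stretch holds no CCAAT match.

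The lowest levels of most of these genes were in the co-cultured knockout. The 53 genes summed to 3831 to 4435 CPM in the libraries of the solo control, 3842 to 4290 in the co-cultured control, 2587 to 2877 in the solo knockout and 1712 to 1758 in the co-cultured knockout. The sums did not overlap between the co-cultured knockout and any other group, or between the solo knockout and either control. A sum is weighted toward the most abundant genes. The median over the 53 genes of the log2 deviation from each gene's mean did overlap between the solo knockout (0.11 to 0.30) and the solo control (0.27 to 0.45) and co-cultured control (0.05 to 0.46). The sums of the 2 control groups overlapped. Per kilobase of exon, CDC20 had the highest level in the solo control (218 CPM per kilobase), followed by MYBL2 (139) and UBE2C (109.5), while NUSAP1 (0.156) and CENPE (0.164) had the lowest. The heat map of all 53 genes shows the pattern library by library.

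**Figure D1:**
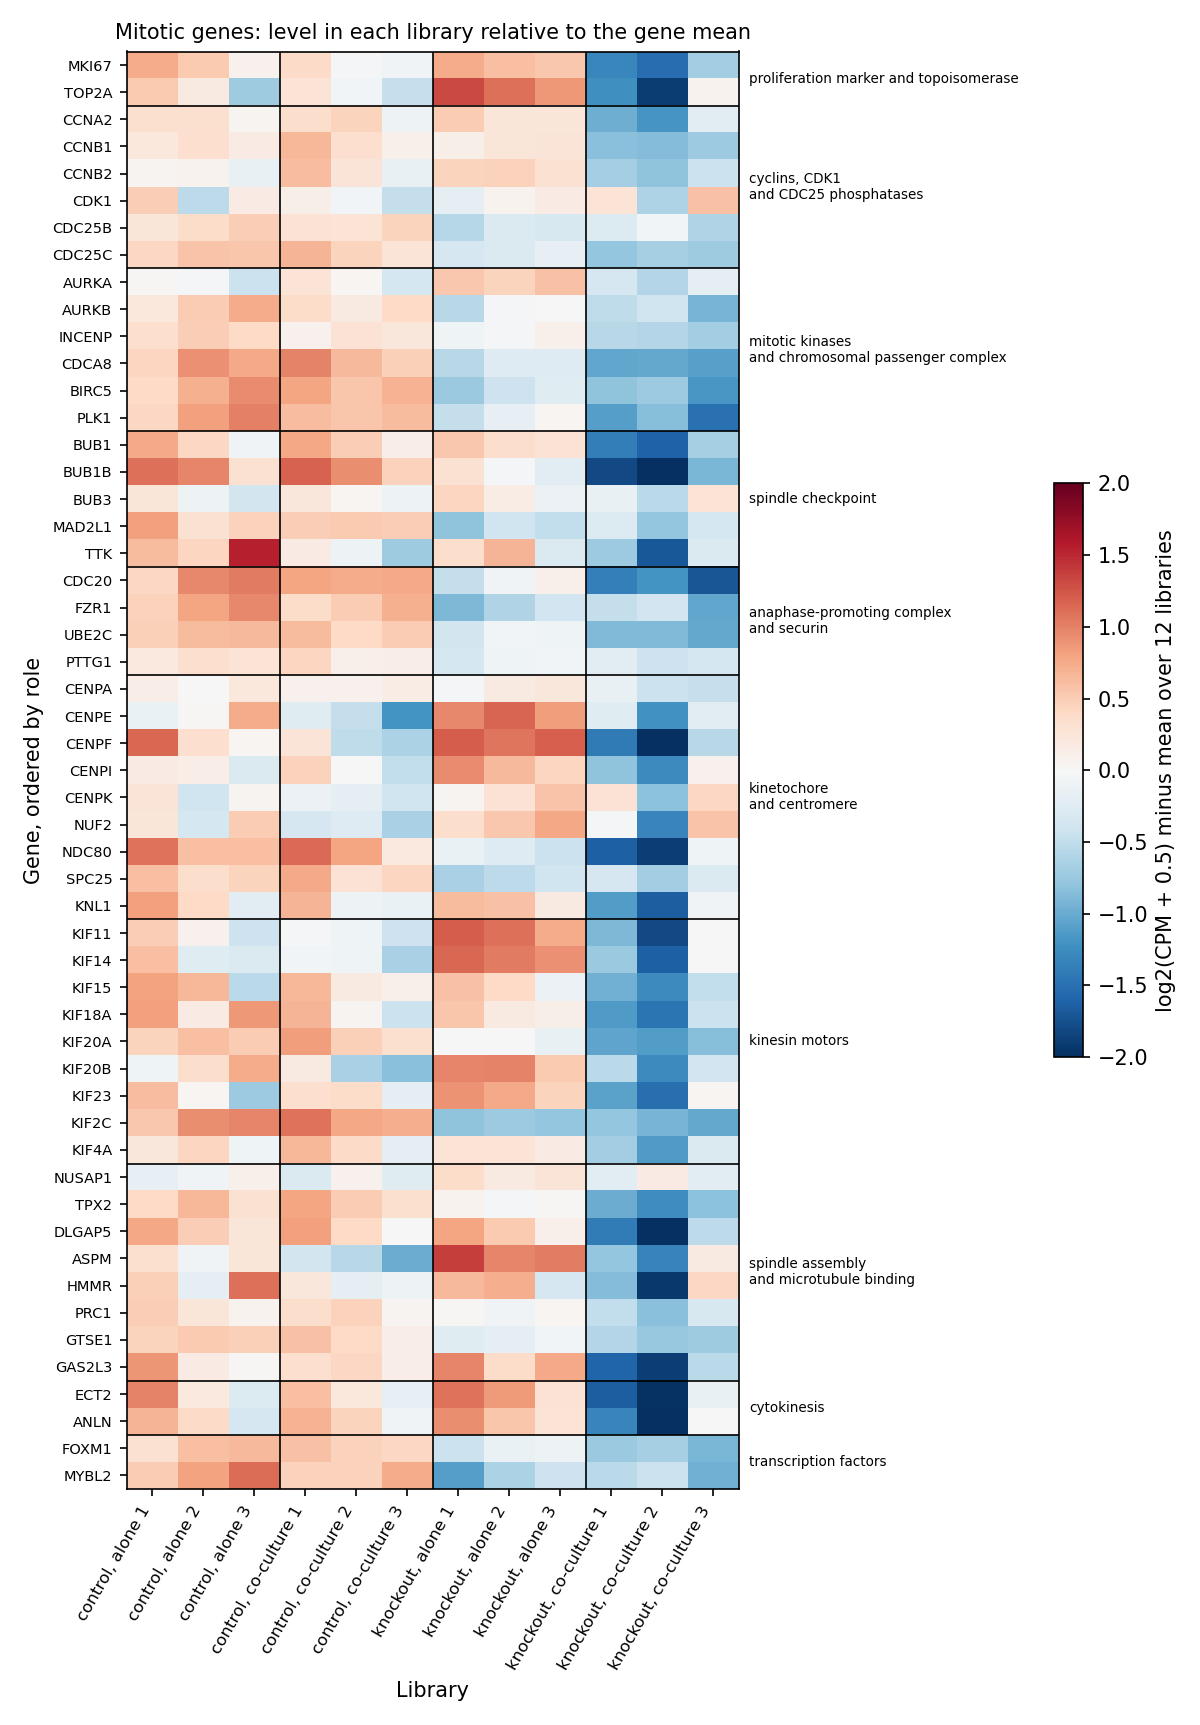
Level of each of the 53 genes (rows, ordered by role) in each of the 12 libraries (columns), as log2(CPM + 0.5) minus the gene's mean over the 12 libraries, with the colour scale ending at 2 in either direction. The columns of the co-cultured knockout are mostly blue (low), with replicate 3 paler than replicates 1 and 2 for many genes.

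Counted gene by gene, 31 of the 53 genes fell from the solo to the co-cultured knockout and none rose (edgeR quasi-likelihood test, adjusted p under 0.05 over all 16768 genes). Over all genes tested, 11.4% were called in this comparison and 5.4% were called lower. The median log2 fold change was -0.97 over the 53 genes and 0.01 over all genes, and 47 of the 53 values were negative. In 37 genes every co-cultured knockout library lay below every solo knockout library, against 14.9% of all genes. These falls are opposite in direction to the restored proliferation that the design text gives for the co-cultured knockout, and the reason was not tested. The knockout against the control, both alone, gave a mixed picture, with 19 genes lower, 2 higher and 32 not called. There 56.6% of all genes were called, 28.6% lower and 28.0% higher, so the share of these genes called (21 of 53, or 39.6%) was below the background. The libraries of these groups did not overlap for 9 genes higher and 21 lower in the knockout, against 33.8% and 31.5% of all genes. With both in co-culture, 36 genes were lower in the knockout and none higher, where 49.4% of all genes were called and 25.3% were called lower, and the median was -1.01 against -0.02 over all genes. The libraries did not overlap for 33 genes, all lower, against 28.5% of all genes. Of the 31 falls above, TOP2A, AURKA, CENPE, CENPI, KIF11, KIF14, KIF20B, KIF23 and ASPM were not among these 36. These comparisons share libraries in pairs and are not independent of one another.

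Co-culture of the control cells called none of the 53 genes, and 0.0% of all genes. At an unadjusted p under 0.05, edgeR had 4 of the 53 genes, all lower, and 540 of all 16768, and DESeq2 likewise called none after adjustment. The median log2 fold change of the 53 genes was -0.08. The control libraries did not overlap for 4 genes lower and none higher with co-culture, against 2.9% and 4.48% of all genes. The interaction, the co-culture difference in the knockout minus that in the control, was tested as well. The partner of the control is not stated in the sources used here, so the 2 co-cultures need not be the same treatment. The edit of TYMS and other differences between the populations cannot be told apart here either. The interaction was called for 7 of the 53 genes, all negative, where 1.8% of all genes were called and 0.286% were called negative. The 7 are CCNB1, CCNB2, TPX2, KIF20A, MKI67, BUB1 and CDC20. The median of the interaction over the 53 genes was -0.86, and 47 were negative.

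**Figure D2:**
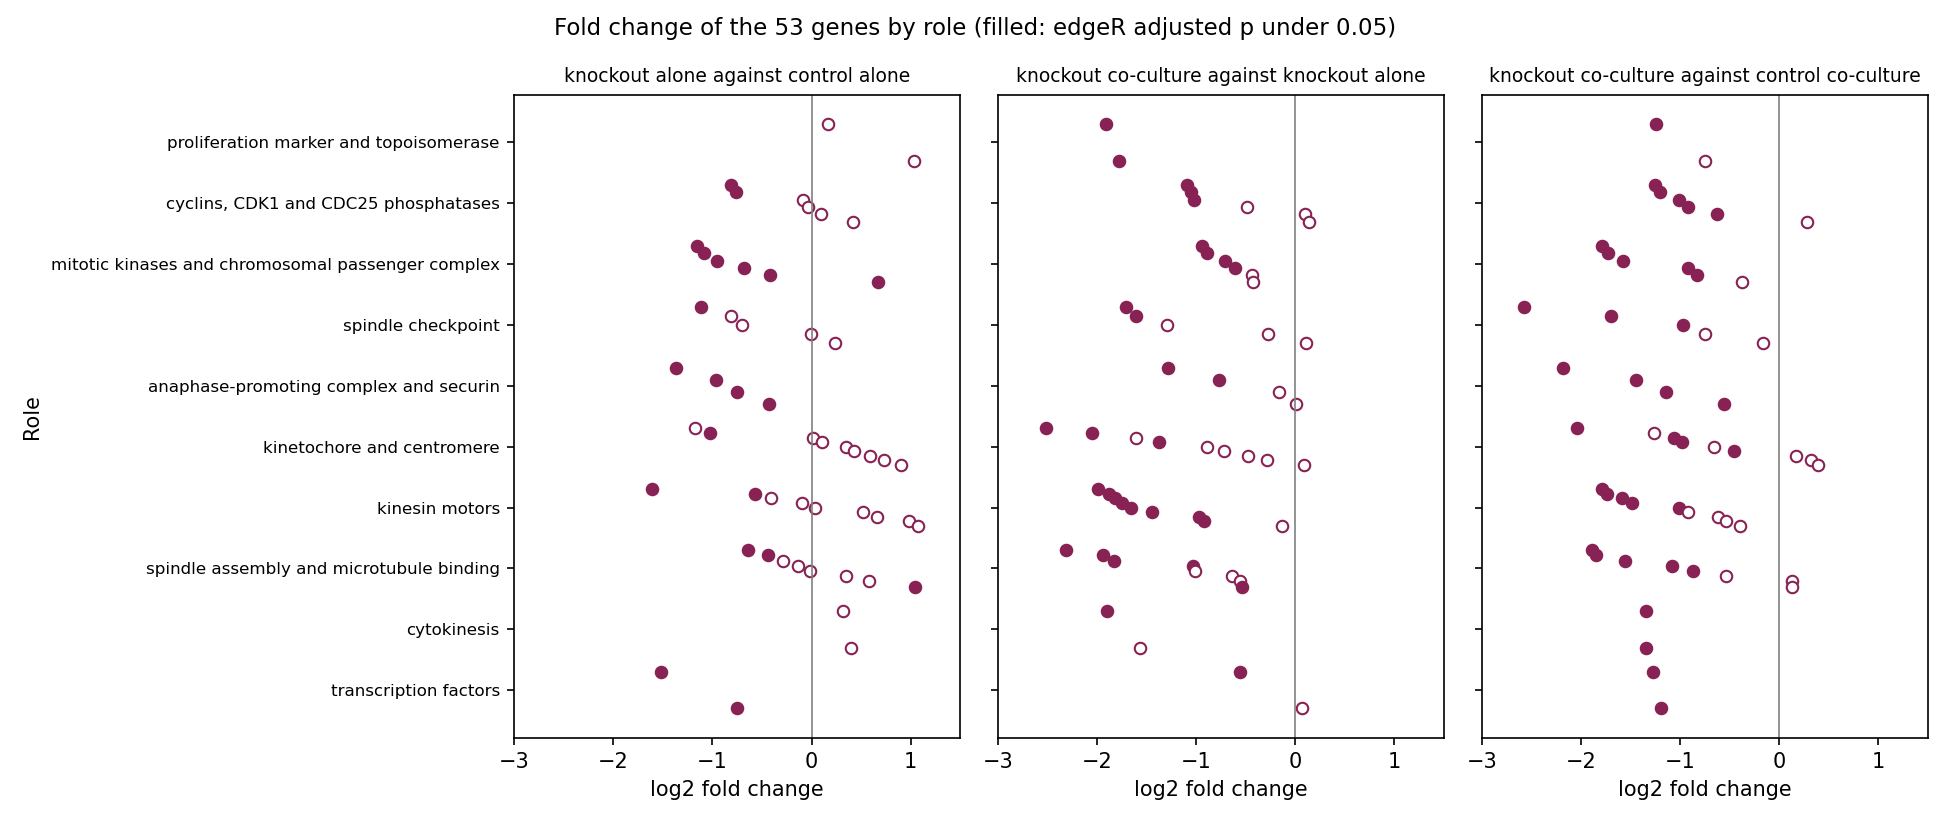
Log2 fold change (x axis) of each of the 53 genes, grouped by role (y axis), in 3 comparisons, with filled points for an edgeR adjusted p under 0.05 and open points for the rest. In the middle panel, co-cultured against solo knockout, 47 of 53 points lie left of 0 and 31 are filled, whereas the left panel, knockout against control alone, has filled points on both sides.

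The proliferation marker MKI67 and the topoisomerase TOP2A, which untangles sister chromatids, both fell with co-culture of the knockout, and neither differed past the test between the solo knockout and the solo control. MKI67 (ENSG00000148773, chr10:128096659-128126385; positions here and below are those of GENCODE 29 on GRCh38) stood at 162, 139 and 102 CPM in the solo control and 125, 93.9 and 91.97 in the co-cultured control. The knockout had 162, 147 and 141 CPM when solo and 38.9, 33.3 and 59.3 when co-cultured. The co-cultured knockout was 3.43-fold below the solo knockout (log2 ratio -1.78, standard error 0.23, edgeR adjusted p = 0.000484) and below every other library of the study. It was also lower than the co-cultured control (log2 ratio -1.24, standard error 0.23, edgeR adjusted p = 0.00053), and the interaction was called (log2 ratio -1.41, standard error 0.32, edgeR adjusted p = 0.0419), though not without replicate 2 or 3 of the solo control, replicate 1, 2 or 3 of the co-cultured control, replicate 1, 2 or 3 of the solo knockout or replicate 1 or 2 of the co-cultured knockout (edgeR adjusted p = 0.0556 to 0.143). The solo knockout overlapped the solo control (log2 ratio 0.16, standard error 0.22, edgeR adjusted p = 0.55). TOP2A (ENSG00000131747, chr17:40388516-40417950) stood at 65.8, 51.9 and 27.8 CPM in the solo control and 55.3, 44.1 and 32.9 in the co-cultured control. The knockout had 115, 97.99 and 83.8 CPM when solo and 19.1, 11.9 and 47.8 when co-cultured. Its solo knockout libraries lay above all others, although the difference from the solo control did not pass the test (log2 ratio 1.03, standard error 0.42, edgeR adjusted p = 0.054). The fall in co-culture did (log2 ratio -1.91, standard error 0.43, edgeR adjusted p = 0.0165), with replicate 3 of the co-cultured knockout far above replicates 1 and 2. That call was not kept without replicate 1 or 2 of the solo knockout or replicate 1 of the co-cultured knockout (edgeR adjusted p = 0.0513 to 0.0934). Between the co-cultured groups TOP2A was not called.

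Of the 6 cyclins, CDK1 and CDC25 phosphatases, 3 fell with co-culture of the knockout and 2 were lower in the solo knockout than in the solo control. CCNB1 (ENSG00000134057, chr5:69167010-69178245), the B-type cyclin that partners CDK1, stood at 166, 181 and 160.4 CPM in the solo control and 227, 180.4 and 154 in the co-cultured control. The knockout had 154, 169.8 and 172 CPM when solo and 79.7, 78.04 and 86.2 when co-cultured. The first 3 groups overlapped, and the co-cultured knockout was 2.03-fold below the solo knockout (log2 ratio -1.02, standard error 0.15, edgeR adjusted p = 0.00098). Against the co-cultured control it was lower as well (log2 ratio -1.20, standard error 0.15, edgeR adjusted p = 1.90e-05), and its interaction (log2 ratio -1.17, standard error 0.21, edgeR adjusted p = 0.0112) was called with all libraries and in each of 20 alternatives. CCNB2 (ENSG00000157456, chr15:59105078-59125045), a second B-type cyclin, stood at 39.8, 39.98 and 34.2 CPM in the solo control and 58.96, 45.8 and 34.3 in the co-cultured control. The knockout had 52.1, 52.5 and 47.1 CPM when solo and 23.7, 21.5 and 28.1 when co-cultured. The co-cultured knockout lay below all other libraries (log2 ratio -1.05, standard error 0.18, edgeR adjusted p = 0.004 against the solo knockout). Its higher level in the solo knockout than in the solo control, with no overlap, did not pass the test (log2 ratio 0.41, standard error 0.18, edgeR adjusted p = 0.069). CCNA2, cyclin A, averaged 29.6 CPM in the solo and 13.9 in the co-cultured knockout (log2 ratio -1.09, standard error 0.24, edgeR adjusted p = 0.0146), a call that was not kept without replicate 1 of the solo knockout or replicate 1 or 2 of the co-cultured knockout (edgeR adjusted p = 0.052 to 0.0877).

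CDK1, the kinase that these cyclins activate, was called in no comparison. CDK1 (ENSG00000170312, chr10:60778331-60794852) stood at 29.6, 14.5 and 23.7 CPM in the solo control and 22.7, 20.2 and 14.96 in the co-cultured control. The knockout had 18.4, 21.96 and 23.6 CPM when solo and 25.4, 13.5 and 31.6 when co-cultured. All 4 groups overlapped. The log2 fold change with co-culture of the knockout was 0.14 with a 95% confidence interval of -0.46 to 0.74. With GC offsets, a correction for GC content described further on, CDK1 was called higher in this comparison (0.63, edgeR adjusted p = 0.0244) and lower in the solo knockout than in the solo control (-0.70, edgeR adjusted p = 0.00568). CDC25B (ENSG00000101224, chr20:3786772-3806121), a phosphatase that activates CDK1, stood at 381, 418 and 453 CPM in the solo control and 394, 391 and 439 in the co-cultured control. The knockout had 216, 264 and 258 CPM when solo and 267, 312 and 213 when co-cultured. Both knockout groups lay below both control groups (log2 ratio -0.76, standard error 0.16, edgeR adjusted p = 0.00113 alone), and the 2 knockout groups overlapped. With GC offsets the difference alone was no longer called (-0.08, edgeR adjusted p = 0.459). CDC25C, a related phosphatase, fell from 17.1 CPM in the solo control to 9.77 in the solo knockout (log2 ratio -0.81, standard error 0.17, edgeR adjusted p = 0.00121), and its further difference of -0.48 with co-culture was not called (edgeR adjusted p = 0.0795).

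Among the 6 mitotic kinases and chromosomal passenger genes, 5 were lower and 1, AURKA, was higher in the solo knockout than in the solo control, and 4 fell with co-culture of the knockout. PLK1 (ENSG00000166851, chr16:23677656-23690367), the Polo-like kinase, stood at 263, 348 and 398 CPM in the solo control and 304, 289 and 305 in the co-cultured control. The knockout had 142, 177 and 202 CPM when solo and 92.1, 109 and 70.1 when co-cultured. The groups formed 3 separate levels, with both controls highest and the co-cultured knockout lowest. The first step down was -0.95 on the log2 scale (SE 0.20, edgeR adjusted p = 0.00114), and the step from solo to co-cultured knockout was -0.94 (SE 0.20, edgeR adjusted p = 0.0107). PLK1 shares 12.5% of its exon bases with genes on the other strand, and whether counting used strand is not given in the sources used here. AURKA (ENSG00000087586, chr20:56369389-56392337), the Aurora kinase of the spindle poles, stood at 56.2, 53.5 and 40.6 CPM in the solo control and 67.1, 56.7 and 43.1 in the co-cultured control. The knockout had 80.3, 75.5 and 82.9 CPM when solo and 43.8, 36.7 and 48.6 when co-cultured. Its solo knockout libraries were the highest of all (log2 ratio 0.67, standard error 0.18, edgeR adjusted p = 0.0066 against the solo control), and it fell with co-culture (log2 ratio -0.89, standard error 0.18, edgeR adjusted p = 0.00924) to levels that overlapped the controls. AURKB (ENSG00000178999, chr17:8204733-8210600), the Aurora kinase of the passenger complex, stood at 107, 132 and 154 CPM in the solo control and 119.8, 104 and 122 in the co-cultured control. The knockout had 62.9, 89.5 and 93.2 CPM when solo and 64.5, 70.2 and 48.4 when co-cultured. It was lower in the solo knockout than in the solo control (log2 ratio -0.68, standard error 0.19, edgeR adjusted p = 0.00887) and overlapped between the 2 knockout groups (log2 ratio -0.42, standard error 0.19, edgeR adjusted p = 0.157).

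The partners of AURKB in that complex were lower in both knockout groups than in the matching controls. CDCA8 (ENSG00000134690, chr1:37692418-37709719), borealin, stood at 70.3, 98.4 and 88.04 CPM in the solo control and 103, 81.5 and 71.99 in the co-cultured control. The knockout had 34.9, 43.02 and 43.4 CPM when solo and 25.01, 25.2 and 24.3 when co-cultured. It was lower in the solo knockout than in the solo control (log2 ratio -1.08, standard error 0.17, edgeR adjusted p = 0.00013) and lower again with co-culture of the knockout (log2 ratio -0.70, standard error 0.17, edgeR adjusted p = 0.0197). The second call was not kept without replicate 2 or 3 of the solo knockout or replicate 1 of the co-cultured knockout (edgeR adjusted p = 0.0586 to 0.0812). INCENP (ENSG00000149503, chr11:62123973-62153163), the scaffold of the complex, stood at 99.2, 111 and 104 CPM in the solo control and 83.6, 96.6 and 92.5 in the co-cultured control. The knockout had 74.2, 76.6 and 84.3 CPM when solo and 53.5, 52.5 and 48.2 when co-cultured. Both steps were called (log2 ratio -0.42, standard error 0.12, edgeR adjusted p = 0.00811 for the knockout, log2 ratio -0.61, standard error 0.12, edgeR adjusted p = 0.00654 for co-culture), with no overlap between the solo control, the solo knockout and the co-cultured knockout. With GC offsets the first step of INCENP changed sign (0.22, edgeR adjusted p = 0.174) and the second remained (-0.93, edgeR adjusted p = 0.000255). Without the low-count filter neither step was called (edgeR adjusted p = 0.0861 and 0.107). BIRC5, survivin, averaged 391 CPM in the solo control, 175 in the solo knockout (log2 ratio -1.16, standard error 0.18, edgeR adjusted p = 0.000155) and 129 in the co-cultured knockout (log2 ratio -0.43, standard error 0.18, edgeR adjusted p = 0.129 for the co-culture step).

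**Figure D3:**
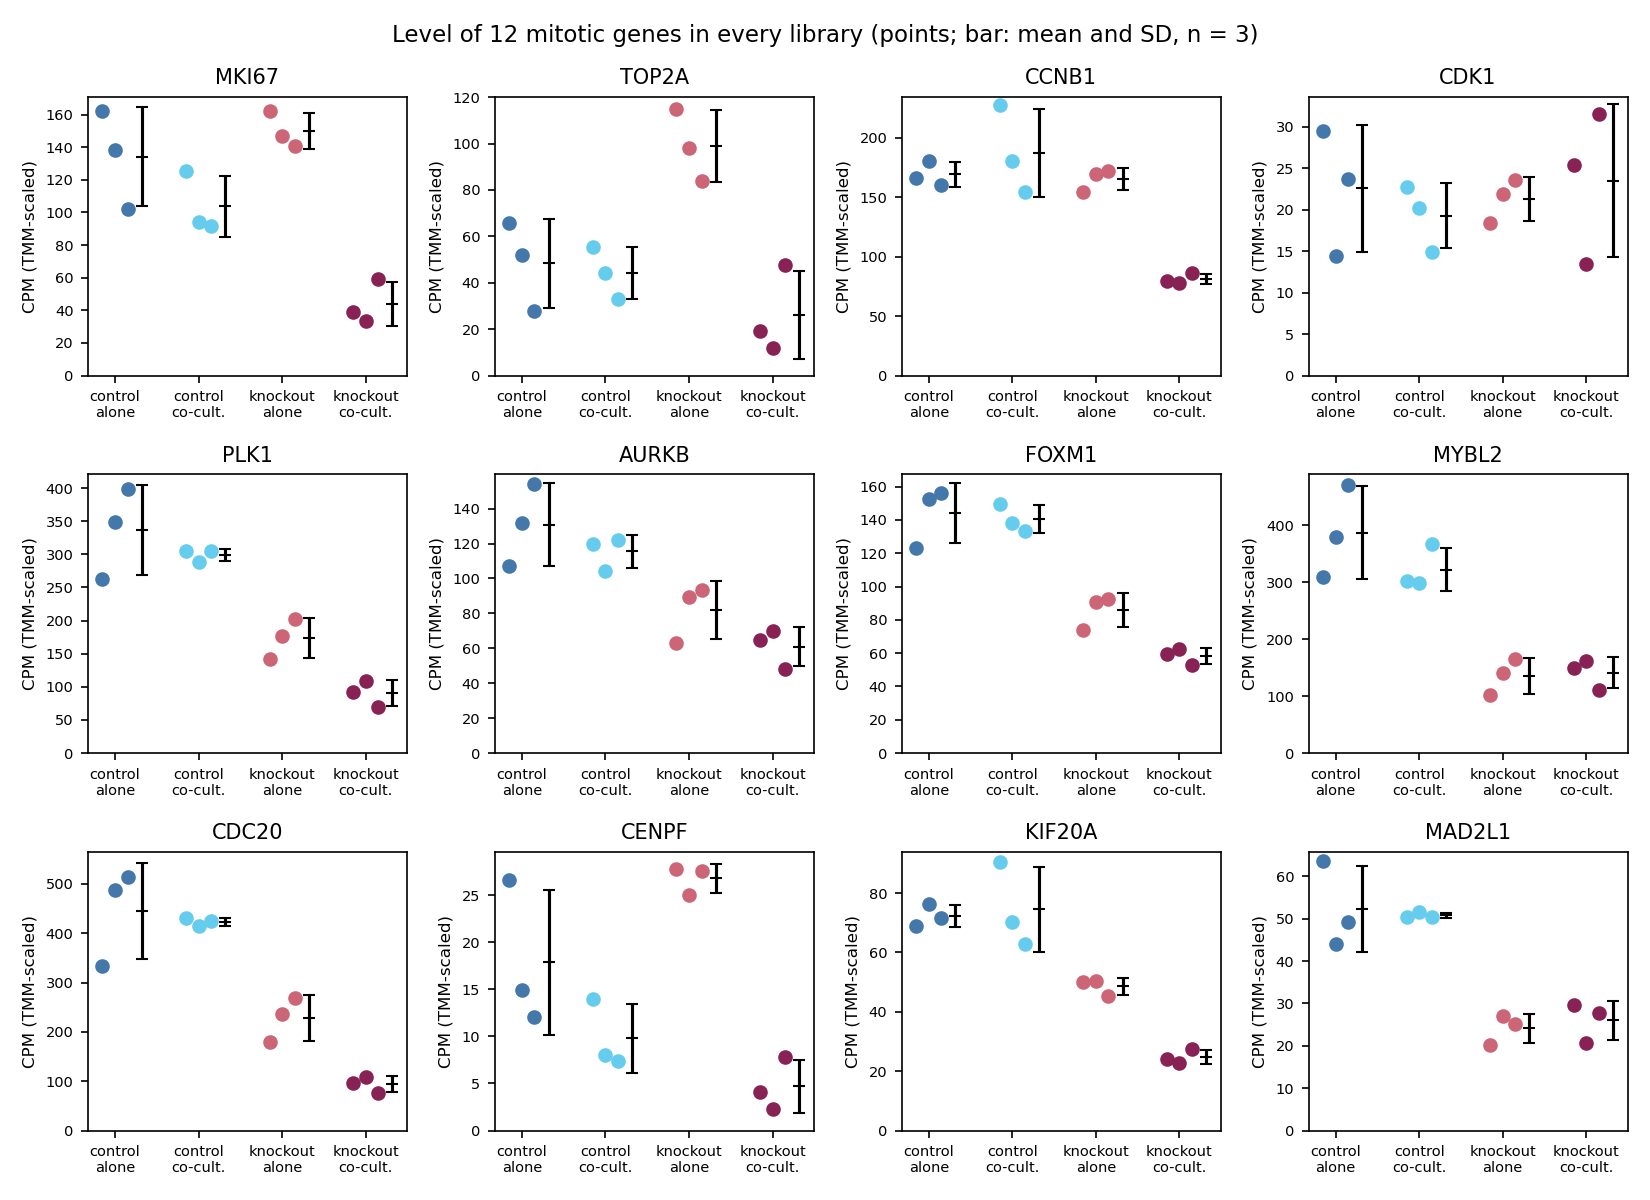
CPM (y axis, each panel with its own scale from 0) of 12 genes in every library of the 4 groups (x axis), with points for replicates 1 to 3 from left to right and a bar for the mean and SD of 3 libraries. PLK1 and CDC20 step down from control to knockout and again with co-culture, CCNB1 is lowest in the co-cultured knockout, MYBL2 and MAD2L1 are low in both knockout groups, and CDK1 overlaps throughout.

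Of 5 spindle checkpoint genes, BUB1 and BUB1B fell with co-culture of the knockout and MAD2L1 was lower in the solo knockout than in the solo control. BUB1 (ENSG00000169679, chr2:110637698-110678114), a checkpoint kinase, stood at 39.2, 31.04 and 21.9 CPM in the solo control and 39.8, 32.5 and 25.3 in the co-cultured control. The knockout had 33.6, 29.5 and 28.4 CPM when solo and 8.54, 7.19 and 14.4 when co-cultured. The first 3 groups overlapped, and the co-cultured knockout lay below all of them, 3.04-fold under the solo knockout (log2 ratio -1.60, standard error 0.28, edgeR adjusted p = 0.00378). BUB1B (ENSG00000156970, chr15:40161023-40221136), which encodes the inhibitor BUBR1, stood at 27.7, 25.4 and 15.7 CPM in the solo control and 29.5, 24.5 and 17.6 in the co-cultured control. The knockout had 15.8, 12.4 and 10.8 CPM when solo and 3.28, 2.21 and 6.53 when co-cultured. It had the largest difference of the 53 genes between co-cultured knockout and co-cultured control (log2 ratio -2.58, standard error 0.37, edgeR adjusted p = 8.15e-05). Its fall from the solo knockout (log2 ratio -1.71, standard error 0.36, edgeR adjusted p = 0.012) was not kept without replicate 1 of the solo knockout or replicate 1 of the co-cultured knockout (edgeR adjusted p = 0.0545 to 0.0722). BUB1B shares 10.2% of its exon bases with a read-through gene on the same strand. MAD2L1 (ENSG00000164109, chr4:120055608-120067074), the checkpoint protein that binds CDC20, stood at 63.7, 44.1 and 49.2 CPM in the solo control and 50.4, 51.5 and 50.4 in the co-cultured control. The knockout had 20.2, 26.9 and 25.2 CPM when solo and 29.5, 20.8 and 27.7 when co-cultured. It was lower in the knockout without overlap, alone (log2 ratio -1.12, standard error 0.18, edgeR adjusted p = 0.000181) and in co-culture (log2 ratio -0.97, standard error 0.18, edgeR adjusted p = 0.000587), while the 2 knockout groups overlapped (log2 ratio 0.11, standard error 0.18, edgeR adjusted p = 0.708). With GC offsets MAD2L1, like CDK1, was called higher in the co-cultured than in the solo knockout (0.67, edgeR adjusted p = 0.0333). BUB3 and TTK had log2 values of -0.28 and -1.29 for co-culture of the knockout, and neither was called in any comparison.

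All 4 genes of the anaphase-promoting complex and securin group were lower in the solo knockout than in the solo control, and 2 fell again with co-culture. CDC20 (ENSG00000117399, chr1:43358955-43363203), the activator of the complex in early mitosis, stood at 334, 487 and 514 CPM in the solo control and 431, 415 and 424 in the co-cultured control. The knockout had 179, 237 and 269 CPM when solo and 96.4, 109 and 76.2 when co-cultured. The controls overlapped each other, and the solo and the co-cultured knockout formed 2 lower, separate levels (log2 ratio -0.96, standard error 0.20, edgeR adjusted p = 0.00117 and log2 ratio -1.28, standard error 0.20, edgeR adjusted p = 0.00187 for the steps). The co-cultured knockout was 4.52-fold below the co-cultured control. UBE2C (ENSG00000175063, chr20:45812576-45816957), the ubiquitin-conjugating enzyme of the complex, stood at 129.9, 145 and 147 CPM in the solo control and 145, 123 and 133 in the co-cultured control. The knockout had 72.4, 89.9 and 88.1 CPM when solo and 50.7, 50.5 and 45.6 when co-cultured. It showed the same 3 levels (log2 ratio -0.75, standard error 0.13, edgeR adjusted p = 0.00028 and log2 ratio -0.77, standard error 0.13, edgeR adjusted p = 0.00289). FZR1 (ENSG00000105325, chr19:3506273-3538330), the activator that takes over from CDC20 as mitosis ends, stood at 119, 151 and 168 CPM in the solo control and 111, 123 and 142 in the co-cultured control. The knockout had 46.1, 57.2 and 66.2 CPM when solo and 62.05, 66.6 and 41.7 when co-cultured. It was lower in the solo knockout than in the solo control (log2 ratio -1.37, standard error 0.20, edgeR adjusted p = 9.96e-05), and the 2 knockout groups overlapped (log2 ratio 0.01, standard error 0.20, edgeR adjusted p = 0.982). FZR1 has the highest GC content of the 53 genes (63.7%), and with GC offsets its difference between solo knockout and solo control shrank to -0.37 (edgeR adjusted p = 0.00109). PTTG1, securin, averaged 71.1 CPM in the solo control and 52.9 in the solo knockout (log2 ratio -0.43, standard error 0.13, edgeR adjusted p = 0.0159), a call that was not kept without replicate 2 of the solo control or replicate 1 of the solo knockout (edgeR adjusted p = 0.0573 to 0.0753).

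Of 9 kinetochore and centromere genes, 3 fell with co-culture of the knockout and 1, SPC25, was lower in the solo knockout than in the solo control. CENPF (ENSG00000117724, chr1:214603195-214664588), a large outer kinetochore protein of late G2 cells, stood at 26.6, 14.9 and 12.1 CPM in the solo control and 14.01, 8.04 and 7.38 in the co-cultured control. The knockout had 27.8, 25.05 and 27.6 CPM when solo and 4.05, 2.27 and 7.76 when co-cultured. It had the largest drop of the 53 genes with co-culture of the knockout, 5.72-fold (log2 ratio -2.52, standard error 0.42, edgeR adjusted p = 0.00303), with no overlap. Its solo knockout overlapped the solo control (log2 ratio 0.59, standard error 0.40, edgeR adjusted p = 0.223). Its difference from the co-cultured control was smaller (log2 ratio -1.06, standard error 0.41, edgeR adjusted p = 0.0473) and was not kept without replicate 2 of the solo control, replicate 1 or 2 of the co-cultured control, replicate 1, 2 or 3 of the solo knockout or replicate 1 or 2 of the co-cultured knockout (edgeR adjusted p = 0.0562 to 0.203). CENPE (ENSG00000138778, chr4:103105806-103198409), a kinetochore motor, stood at only 1.05, 1.23 and 2.35 CPM in the solo control and 0.950, 0.727 and 0.245 in the co-cultured control. The knockout had 2.84, 3.34 and 2.56 CPM when solo and 0.949, 0.239 and 0.970 when co-cultured, with as few as 6 counts in a library. Its fall with co-culture (log2 ratio -2.05, standard error 0.49, edgeR adjusted p = 0.0217) was not kept without replicate 1 or 2 of the solo knockout or replicate 1 or 2 of the co-cultured knockout (edgeR adjusted p = 0.0509 to 0.0789). CENPI, an inner kinetochore protein, averaged 8.23 CPM in the solo and 3.19 in the co-cultured knockout (log2 ratio -1.37, standard error 0.38, edgeR adjusted p = 0.0379), and that call was not kept without replicate 2 of the solo control, replicate 2 of the co-cultured control, replicate 1, 2 or 3 of the solo knockout or replicate 1 or 2 of the co-cultured knockout (edgeR adjusted p = 0.0575 to 0.162). Neither CENPE nor CENPI was called between the co-cultured groups.

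The 4-subunit NDC80 complex, which binds microtubules, had different calls across its subunits. SPC25 (ENSG00000152253, chr2:168834132-168913371) stood at 19.2, 16.1 and 17.1 CPM in the solo control and 21.6, 15.4 and 16.96 in the co-cultured control. The knockout had 7.79, 8.56 and 9.37 CPM when solo and 9.74, 7.54 and 10.1 when co-cultured. Both knockout groups lay below both control groups without overlap (log2 ratio -1.03, standard error 0.19, edgeR adjusted p = 0.000553 alone) and overlapped each other (log2 ratio 0.09, standard error 0.19, edgeR adjusted p = 0.775). NDC80 averaged 5.86, 5.75, 2.57 and 1.39 CPM in the solo control, co-cultured control, solo knockout and co-cultured knockout, and was called only between the co-cultured groups (log2 ratio -2.04, standard error 0.52, edgeR adjusted p = 0.00557). NUF2 averaged 3.71, 2.30, 5.00 and 3.04 CPM in the same order and was not called in any comparison. SPC24, from the list of other mitotic genes, was called higher with co-culture of the knockout (log2 ratio 0.62, standard error 0.18, edgeR adjusted p = 0.0475), a call that was not kept without replicate 2 of the solo control, replicate 1, 2 or 3 of the co-cultured control, replicate 1, 2 or 3 of the solo knockout or replicate 1 or 2 of the co-cultured knockout (edgeR adjusted p = 0.0612 to 0.192). CENPA, the centromeric histone, was called only between the co-cultured groups (log2 ratio -0.46, standard error 0.15, edgeR adjusted p = 0.0199), a call that was not kept without replicate 3 of the co-cultured knockout (edgeR adjusted p = 0.0579). That call was also lost without the low-count filter (edgeR adjusted p = 0.288) and with only the groups compared (edgeR adjusted p = 0.113). CENPK and KNL1 were called in no comparison.

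The kinesins had the highest share of falls among the roles with more than 2 genes, 8 of 9 with co-culture of the knockout. KIF20A (ENSG00000112984, chr5:138178719-138187715), a motor of the central spindle, stood at 68.9, 76.4 and 71.6 CPM in the solo control and 90.6, 70.3 and 62.98 in the co-cultured control. The knockout had 49.9, 50.5 and 45.2 CPM when solo and 23.97, 22.9 and 27.5 when co-cultured. The co-cultured knockout lay below all other libraries (log2 ratio -0.97, standard error 0.15, edgeR adjusted p = 0.00159 against the solo knockout), and the solo knockout lay below the solo control (log2 ratio -0.57, standard error 0.15, edgeR adjusted p = 0.00471). KIF20B (ENSG00000138182, chr10:89701610-89774939), a cytokinesis motor with the lowest GC content of the 53 genes (34.1%), stood at 2.54, 3.63 and 4.92 CPM in the solo control and 3.15, 1.57 and 1.30 in the co-cultured control. The knockout had 5.84, 5.93 and 4.14 CPM when solo and 1.72, 0.835 and 1.98 when co-cultured. It fell with co-culture of the knockout (log2 ratio -1.82, standard error 0.39, edgeR adjusted p = 0.0131), a call that was not kept without replicate 1 or 2 of the solo knockout or replicate 1 of the co-cultured knockout (edgeR adjusted p = 0.0514 to 0.0533). Among the others, KIF14 had the largest value (-1.99), followed by KIF11, the motor that pushes spindle poles apart (-1.88), KIF15 (-1.75), KIF18A (-1.66), KIF23 (-1.45) and KIF4A (-0.93). All 6 were called, at edgeR adjusted p-values of 0.0179, 0.0137, 0.0336, 0.0311, 0.0366 and 0.0306, and each lost its call when replicate 1 of either knockout group was left out. Some of the 6 also lost it without other libraries, and over all such cases the edgeR adjusted p ran from 0.0511 to 0.160. Between the co-cultured groups KIF11, KIF14, KIF20B and KIF23 were not called, whereas KIF20A, KIF15, KIF18A and KIF4A were called lower in the knockout.

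KIF2C was the motor not called with co-culture of the knockout. KIF2C (ENSG00000142945, chr1:44739818-44767767), a microtubule depolymerase at centromeres, stood at 109, 143 and 148 CPM in the solo control and 159, 129 and 124 in the co-cultured control. The knockout had 42.6, 44.8 and 43.6 CPM when solo and 43.7, 39.00 and 36.6 when co-cultured. Both knockout groups lay far below both control groups, 3.05-fold alone (log2 ratio -1.61, standard error 0.15, edgeR adjusted p = 1.81e-06), which was the largest fall of the 53 genes between solo knockout and solo control. The 2 knockout groups overlapped (log2 ratio -0.14, standard error 0.15, edgeR adjusted p = 0.567). With GC offsets its smaller co-culture difference was called (-0.35, edgeR adjusted p = 0.0274).

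Of 8 genes of spindle assembly and microtubule binding, 5 fell with co-culture of the knockout. TPX2 (ENSG00000088325, chr20:31739271-31801805), the activator of AURKA, stood at 184, 219.8 and 172 CPM in the solo control and 239, 197 and 173 in the co-cultured control. The knockout had 146, 136 and 141 CPM when solo and 69.8, 58.6 and 78.5 when co-cultured. The co-cultured knockout lay below all other libraries (log2 ratio -1.03, standard error 0.16, edgeR adjusted p = 0.00176 against the solo knockout). The solo knockout also lay below the solo control (log2 ratio -0.44, standard error 0.16, edgeR adjusted p = 0.0288), a call not kept without replicate 2 of the solo control or replicate 1, 2 or 3 of the solo knockout (edgeR adjusted p = 0.0527 to 0.123). GTSE1 (ENSG00000075218, chr22:46296741-46330810), a microtubule plus-end protein, stood at 56.7, 59.8 and 57.9 CPM in the solo control and 62.9, 54.8 and 45.6 in the co-cultured control. The knockout had 35.3, 36.3 and 40.1 CPM when solo and 27.6, 24.3 and 25.2 when co-cultured. It was lower in the solo knockout than in the solo control (log2 ratio -0.64, standard error 0.14, edgeR adjusted p = 0.00138) and lower again in co-culture (log2 ratio -0.53, standard error 0.14, edgeR adjusted p = 0.0273), and the second call was not kept without replicate 1, 2 or 3 of the solo knockout or replicate 1 or 2 of the co-cultured knockout (edgeR adjusted p = 0.066 to 0.0892). The second call was also lost with RLE scaling, without the low-count filter, with the replicate block and with only the groups compared (edgeR adjusted p = 0.0512 to 0.239). GAS2L3 (ENSG00000139354, chr12:100573683-100628286), which links actin and microtubules, stood at 7.13, 4.13 and 3.72 CPM in the solo control and 4.75, 5.01 and 4.04 in the co-cultured control. The knockout had 7.70, 4.83 and 6.51 CPM when solo and 0.862, 0.626 and 2.35 when co-cultured. It fell 4.97-fold with co-culture (log2 ratio -2.31, standard error 0.43, edgeR adjusted p = 0.00579), without overlap with any other group. That call was lost with only the groups compared (edgeR adjusted p = 0.0533). ASPM, a spindle pole protein, averaged 4.39 CPM in the solo control and 9.06 in the solo knockout and was, with AURKA, 1 of the 2 genes called higher there (log2 ratio 1.05, standard error 0.38, edgeR adjusted p = 0.0313). That call was not kept without replicate 2 or 3 of the solo control or replicate 1 or 3 of the solo knockout (edgeR adjusted p = 0.0537 to 0.107), nor with GC offsets (0.37, edgeR adjusted p = 0.136). ASPM and DLGAP5, a spindle stabilizer, fell with co-culture of the knockout, with log2 ratios of -1.83 and -1.94 (edgeR adjusted p = 0.0113 and 0.016). Those calls were not kept without replicate 1 of the solo knockout or replicate 1 of the co-cultured knockout (edgeR adjusted p = 0.0521 to 0.07) for ASPM, and without replicate 1 or 2 of the solo knockout or replicate 1 of the co-cultured knockout (edgeR adjusted p = 0.053 to 0.0866) for DLGAP5. Between the co-cultured groups ASPM was not called, and DLGAP5 was called lower in the knockout. HMMR and NUSAP1 were called in no comparison, and PRC1 was called only between the co-cultured groups (log2 ratio -0.87, standard error 0.20, edgeR adjusted p = 0.00267). NUSAP1 and PRC1 share 62.2% and 58.4% of their exon bases with other annotated genes, so their counts are uncertain.

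The cytokinesis genes ECT2 and ANLN had similar values, and 1 of them passed the test with co-culture of the knockout. ECT2 (ENSG00000114346, chr3:172750682-172821474), which switches on the contractile ring, stood at 21.9, 12.3 and 8.80 CPM in the solo control and 16.5, 12.6 and 9.50 in the co-cultured control. The knockout had 23.3, 19.9 and 13.2 CPM when solo and 3.10, 2.36 and 9.70 when co-cultured. The 2 knockout groups did not overlap (log2 ratio -1.90, standard error 0.49, edgeR adjusted p = 0.029), and the call was not kept without replicate 1 or 2 of the solo knockout or replicate 1 or 2 of the co-cultured knockout (edgeR adjusted p = 0.0831 to 0.137). ANLN (ENSG00000011426, chr7:36389806-36453791), anillin, a scaffold of the ring, stood at 24.3, 19.7 and 11.8 CPM in the solo control and 24.7, 20.5 and 14.2 in the co-cultured control. The knockout had 28.95, 22.2 and 18.3 CPM when solo and 5.69, 2.80 and 14.96 when co-cultured. Its libraries did not overlap between the knockout groups either, and the difference did not pass the test (log2 ratio -1.57, standard error 0.48, edgeR adjusted p = 0.0515). In both genes replicate 3 of the co-cultured knockout was the highest of its group. Both were lower in the co-cultured knockout than in the co-cultured control (log2 ratio -1.35, standard error 0.49, edgeR adjusted p = 0.0345 for ECT2, log2 ratio -1.34, standard error 0.48, edgeR adjusted p = 0.0324 for ANLN). Those calls were not kept without replicate 1 or 2 of the co-cultured control or replicate 1 or 2 of the co-cultured knockout (edgeR adjusted p = 0.0668 to 0.121) for ECT2, and without replicate 1 or 2 of the co-cultured control or replicate 1 or 2 of the co-cultured knockout (edgeR adjusted p = 0.0648 to 0.109) for ANLN.

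Both transcription factors were lower in the solo knockout than in the solo control, and 1 of them fell further with co-culture. FOXM1 (ENSG00000111206, chr12:2857681-2877155), the forkhead factor of the G2 phase, stood at 123, 153 and 156 CPM in the solo control and 149.6, 138 and 133 in the co-cultured control. The knockout had 73.8, 90.8 and 92.6 CPM when solo and 59.5, 62.6 and 52.7 when co-cultured. It formed 3 levels (log2 ratio -0.75, standard error 0.14, edgeR adjusted p = 0.000575 for the knockout and log2 ratio -0.56, standard error 0.14, edgeR adjusted p = 0.0258 for co-culture of the knockout), and the second call was not kept without replicate 2 or 3 of the solo knockout or replicate 1 of the co-cultured knockout (edgeR adjusted p = 0.0709 to 0.102). The second call was also lost with RLE scaling, without the low-count filter and with only the groups compared (edgeR adjusted p = 0.0667 to 0.177). FOXM1 shares 15.9% of its exon bases with a gene on the other strand. MYBL2 (ENSG00000101057, chr20:43667019-43716496), B-MYB, stood at 309.6, 379.8 and 471 CPM in the solo control and 301, 299 and 366 in the co-cultured control. The knockout had 101, 139.6 and 164 CPM when solo and 149.8, 162 and 111 when co-cultured. It was 2.87-fold lower in the solo knockout than in the solo control (log2 ratio -1.52, standard error 0.22, edgeR adjusted p = 6.65e-05), and the 2 knockout groups overlapped (log2 ratio 0.07, standard error 0.21, edgeR adjusted p = 0.858). With GC offsets the first value was -0.75 and the co-culture value was -0.27 (edgeR adjusted p = 4.22e-06 and 0.0409), so MYBL2 was then called lower in both.

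In both comparisons that involve the solo knockout, the fold changes of these genes ran with GC content in the same direction as those of all genes. Exon GC content ran from 34.1% in KIF20B to 63.7% in FZR1 with a median of 42.1%, and 40 of the 53 genes lay below the median of 49.6% of all tested genes that had a GC value. Across the 53 genes, Spearman's rho between GC content and log2 fold change was -0.62 for the knockout against the control, both alone (-0.39 over 16505 genes), and 0.51 for co-culture of the knockout (0.44 over 16505 genes). Between the co-cultured groups it was -0.33 (-0.11 over all genes), and for the interaction 0.29 (0.54 over all genes). With co-culture of the control the signs were opposite, 0.38 over the 53 genes and -0.37 over all genes. The points are genes in the same libraries and not independent. In all 4 groups, libraries of the same group also differed along GC content. The rho over all genes between a gene's deviation from its group mean and its GC content was widest in the co-cultured knockout, from -0.83 (replicate 3) to 0.81 (replicate 2). Over the 53 genes these 2 libraries had -0.80 and 0.86. Over all genes it ran from -0.72 to 0.69 in the solo control, -0.56 to 0.68 in the co-cultured control and -0.65 to 0.65 in the solo knockout. The median deviation of the 53 genes was -0.78, -1.14 and -0.43 in replicates 1 to 3 of the co-cultured knockout, and all 3 lay below the lowest value of any other library, 0.05.

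**Figure D4:**
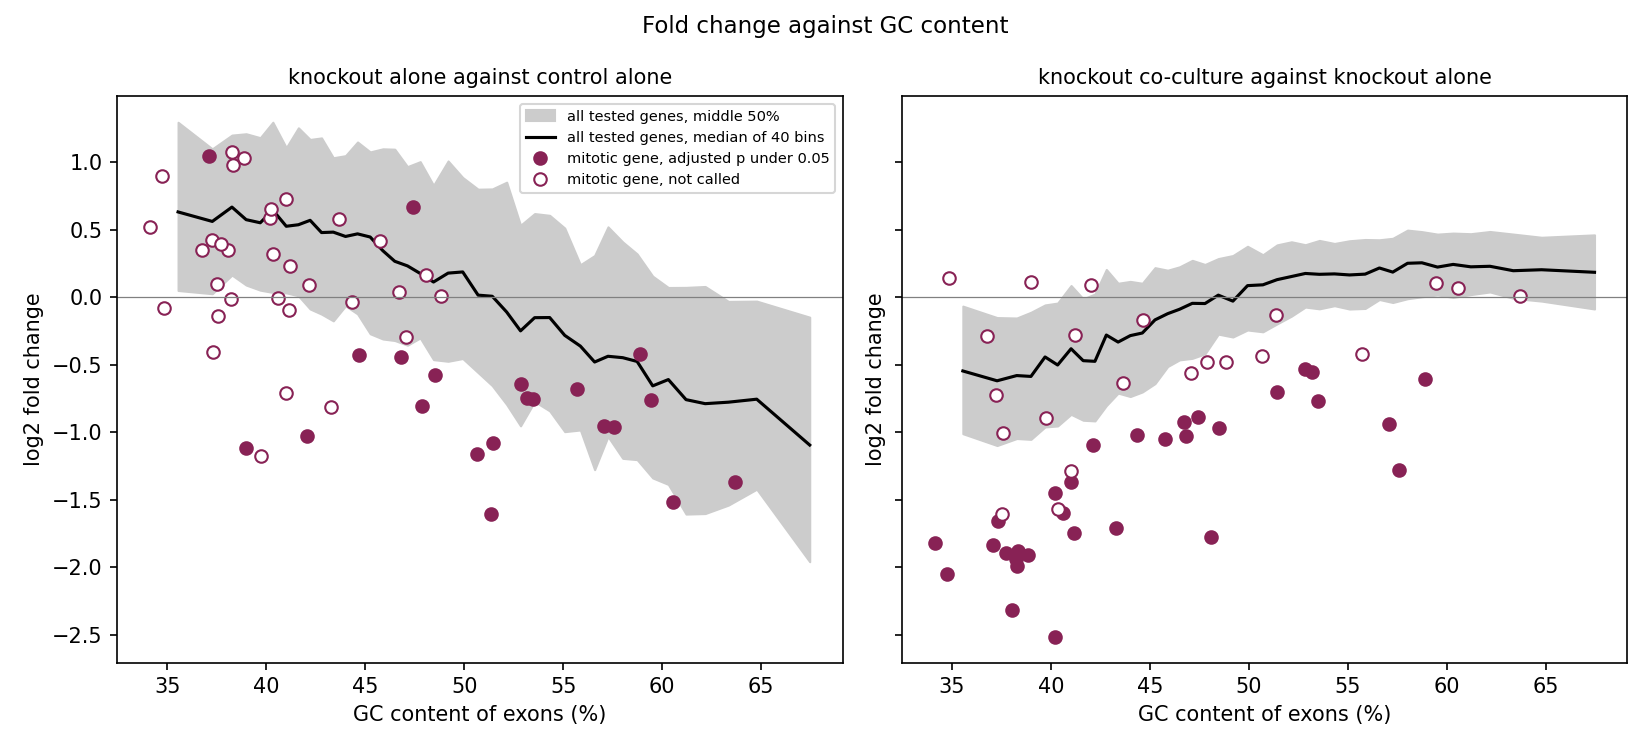
Log2 fold change (y axis) against exon GC content in percent (x axis) for the knockout against the control, both alone (left), and for co-cultured against solo knockout (right), with the grey band and black line for the middle 50% and the median of all tested genes in 40 bins of GC content. The mitotic genes (points, filled where edgeR adjusted p is under 0.05) run downward from left to right in the left panel and upward in the right panel, as does the line for all genes, and in the right panel most points lie under that line.

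Split at the median GC content of all tested genes, the 2 classes had different medians between solo knockout and solo control. All 13 genes of high GC content were lower, where 44.1% of all genes of that class were called lower, with a median log2 fold change of -0.95 against -0.40 for the class. Of the 40 genes of low GC content, 6 were lower and 2 higher, where 13.3% and 36.1% of all such genes were, with a median of 0.10 against 0.46. With co-culture of the knockout both classes fell. Of the low class 24 of 40 were lower (8.63% of all such genes) with a median of -1.19 against -0.29, and of the high class 7 of 13 were (2.25%) with a median of -0.53 against 0.19. The 3 co-cultured knockout libraries differed in which class was lower: replicate 2 had -1.28 for the low and -0.73 for the high class, and replicate 3 had -0.29 and -1.02.

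**Figure D5:**
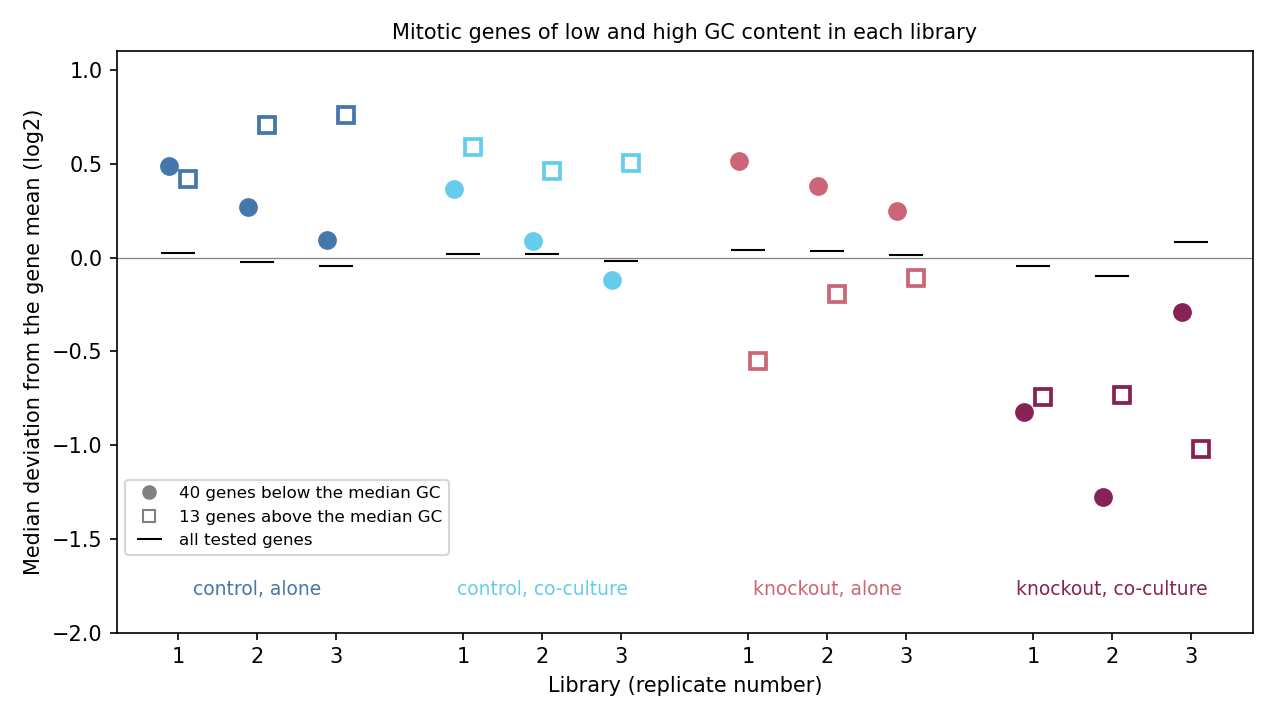
Median log2 deviation from the gene mean (y axis) of the 40 mitotic genes of low GC content (circles) and the 13 of high GC content (squares) in each library (x axis), with a bar for the median of all tested genes. High-GC genes are low in all 6 knockout libraries, from -1.02 to -0.11. Low-GC genes are low in all 3 co-cultured knockout libraries and run from 0.25 to 0.52 in the solo knockout. That range overlaps the solo control (0.09 to 0.49) and the co-cultured control (-0.12 to 0.36).

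Removing each library's smooth trend of deviation with GC content (GC offsets) before the fit left the falls in co-culture in place and changed the comparison of solo knockout with solo control. For co-culture of the knockout, 42 of the 53 genes were then called lower and 2 higher, with 18.3% of all genes called lower and 10.6% higher, and the median was -0.92. All 13 genes of high GC content were lower, and 29 of the 40 of low GC content. For the knockout against the control, both alone, 28 were lower and 1 higher (31.1% and 31.2% of all genes), and the median moved from -0.08 to -0.45. CCNB1, for example, went from -0.03 to -0.51 in this comparison (edgeR adjusted p = 0.0016 with the offsets). With both in co-culture 44 were lower (33.9% of all genes). The offsets remove any real difference between groups that runs along GC content as well as a technical one. When the trend was removed only within groups, so that group differences stayed, 43 genes were lower with co-culture of the knockout (19.8% of all genes). For the knockout against the control, both alone, 21 were then lower and 10 higher (32.6% and 34.8% of all genes).

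A further list held 102 mitotic genes outside the 53. With co-culture of the knockout 28 of 102 were lower and 3 higher, where 5.4% and 5.97% of all genes were, with a median log2 fold change of -0.40 against -0.97 in the 53. Between solo knockout and solo control 36 were lower and 7 higher (28.6% and 28.0% of all genes), with a median of -0.17 against -0.08 in the 53. Between the co-cultured groups 52 were lower and 2 higher (25.3% and 24.1% of all genes), with a median of -0.62 against -1.01. None was called with co-culture of the control. Cytokinesis had 4 of 6 lower with co-culture of the knockout, among them CIT, the citron kinase (log2 ratio -1.21, standard error 0.15, edgeR adjusted p = 0.000404), and RACGAP1, a partner of ECT2 and KIF23 (log2 ratio -0.83, standard error 0.19, edgeR adjusted p = 0.0192). Condensin, which compacts chromosomes, had 4 of 8 lower, among them NCAPD2, which averaged 358, 356, 241 and 135 CPM in the solo control, co-cultured control, solo knockout and co-cultured knockout (log2 ratio -0.84, standard error 0.15, edgeR adjusted p = 0.00372), and NCAPH (log2 ratio -0.81, standard error 0.16, edgeR adjusted p = 0.00925). Subunits of the anaphase-promoting complex had 1 of 13 lower, ANAPC1 (log2 ratio -1.53, standard error 0.34, edgeR adjusted p = 0.0144), and 1 higher, CDC26 (log2 ratio 0.68, standard error 0.20, edgeR adjusted p = 0.0477). CIT, NCAPD2 and NCAPH kept these calls whichever library was left out. RACGAP1 lost its call without replicate 1 or 2 of the solo knockout or replicate 1 or 2 of the co-cultured knockout (edgeR adjusted p = 0.0652 to 0.0968), and ANAPC1 without replicate 1 of the solo knockout or replicate 1 of the co-cultured knockout (edgeR adjusted p = 0.0665 to 0.0845). CDC26 lost its call without any one of 11 libraries (edgeR adjusted p = 0.0506 to 0.194) and kept it without replicate 3 of the co-cultured knockout.

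Other spindle genes had 5 of 13 lower, among them SPAG5 (log2 ratio -0.84, standard error 0.14, edgeR adjusted p = 0.00288) and KIF18B (log2 ratio -0.63, standard error 0.12, edgeR adjusted p = 0.00634). Of 28 other kinetochore and centromere genes 3 were lower and 2 higher. HJURP, the chaperone that places CENPA, was the clearest exception among the named ones in the knockout: it rose from 45.8 ± 2.80 CPM (SD, n = 3) in the solo control to 123 ± 10.05 in the solo knockout (log2 ratio 1.42, standard error 0.13, edgeR adjusted p = 1.58e-06) and came down to 75.4 ± 8.82 in the co-cultured knockout (log2 ratio -0.71, standard error 0.13, edgeR adjusted p = 0.0053), still above the co-cultured control (log2 ratio 0.60, standard error 0.13, edgeR adjusted p = 0.00199). SKA3, which helps hold kinetochores on microtubules, was lowest in the co-cultured knockout (log2 ratio -1.49, standard error 0.33, edgeR adjusted p = 0.0138). Of 6 checkpoint and cohesion protection genes TRIP13 (log2 ratio -0.45, standard error 0.12, edgeR adjusted p = 0.0337) and SGO2 (log2 ratio -1.53, standard error 0.45, edgeR adjusted p = 0.0465) were lower. Of 15 other kinases and regulators 5 were lower, among them CDCA2 (log2 ratio -1.52, standard error 0.32, edgeR adjusted p = 0.0114) and CDCA3 (log2 ratio -0.74, standard error 0.16, edgeR adjusted p = 0.0114). Of 13 MuvB and E2F genes 4 were lower, among them RBL2, the p130 repressor (log2 ratio -1.13, standard error 0.29, edgeR adjusted p = 0.0269), and E2F2. E2F2 was at 55.5 ± 6.33 CPM (SD, n = 3) in the solo control and 13.4 ± 1.89 in the solo knockout (log2 ratio -2.05, standard error 0.16, edgeR adjusted p = 2.37e-07). Its difference with co-culture of the knockout was smaller (log2 ratio -0.55, standard error 0.15, edgeR adjusted p = 0.0395). HJURP, SPAG5 and KIF18B kept their calls with co-culture of the knockout whichever library was left out, and KIF18B lost its call without the low-count filter (edgeR adjusted p = 0.0926). SKA3 lost its call without replicate 2 of the solo knockout or replicate 1 of the co-cultured knockout (edgeR adjusted p = 0.05 to 0.0792), CDCA2 without replicate 1 of the co-cultured knockout (edgeR adjusted p = 0.0623) and CDCA3 without replicate 2 of the solo knockout or replicate 1 of the co-cultured knockout (edgeR adjusted p = 0.0559 to 0.0569). RBL2 lost its call without replicate 1, 2 or 3 of the solo knockout or replicate 1 or 2 of the co-cultured knockout (edgeR adjusted p = 0.0555 to 0.13). TRIP13 lost its call without replicate 2 of the solo control, replicate 2 of the co-cultured control, replicate 1, 2 or 3 of the solo knockout or replicate 1 or 2 of the co-cultured knockout (edgeR adjusted p = 0.053 to 0.138). SGO2 lost its call without replicate 1 of the solo control, replicate 1, 2 or 3 of the co-cultured control, replicate 1, 2 or 3 of the solo knockout or replicate 1 or 2 of the co-cultured knockout (edgeR adjusted p = 0.052 to 0.173) and with GC offsets (edgeR adjusted p = 0.0641). E2F2 lost its call with co-culture without replicate 2 of the solo control, replicate 1 or 2 of the co-cultured control, replicate 2 or 3 of the solo knockout or replicate 1 or 2 of the co-cultured knockout (edgeR adjusted p = 0.0517 to 0.145) and with DESeq2 (adjusted p = 0.059). That call was also lost with RLE scaling, without the low-count filter, with the replicate block and with only the groups compared (edgeR adjusted p = 0.0745 to 0.279).

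The number of genes called with co-culture of the knockout rested on single libraries. It was 31 of 53 with all libraries, 13 without replicate 1 of the co-cultured knockout, 15 and 17 without replicate 1 or 2 of the solo knockout, 38 without replicate 3 of the co-cultured knockout, and 14 when the control libraries were left out of the fit. In each of 21 alternatives 11 of the 31 were called: MKI67, CCNB1, CCNB2, AURKA, PLK1, BUB1, CDC20, UBE2C, CENPF, KIF20A and TPX2. For the solo knockout against the solo control 15 of 21 calls held in each alternative, and between the co-cultured groups 29 of 36. Of the 7 interactions only that of CCNB1 did, and the number called rose to 27 without replicate 3 of the co-cultured knockout. It fell to between 1 and 3 without replicate 2 or 3 of the solo control, replicate 1 or 2 of the co-cultured control, any 1 library of the solo knockout, or replicate 1 or 2 of the co-cultured knockout.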

How the data were processed

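RNA from cells labelled A549 was sequenced in 12 libraries, 3 for each of the 4 groups given by the labels, and every column of the table was matched to its sample by name. The authors deposited whole-number counts per Ensembl gene, without normalization. The submitters' processing notes name FastQC, STAR 2.7.9a, featureCounts, R 4.2.1, DESeq2 1.36.0 and the build GRCh38 or hg38. The annotation and the strand setting of counting are not given in the sources used here. Positions, exon lengths and exon GC content come from matching identifiers to GENCODE 29 on GRCh38 (58366 of 61541 matched), and promoter sequences from RefSeq on GRCh38.p14.

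Counts were fitted in R 4.3.3 with edgeR 4.0.16: filterByExpr on the 4 groups, TMM scaling, 1 model of 4 group means over the 12 libraries, and the robust quasi-likelihood F-test. Within each of 5 comparisons the Benjamini-Hochberg adjustment ran over all 16768 genes, and genes with an adjusted p under 0.05 were called. The biological coefficient of variation was 22.1%. A log2 ratio is the fitted log2 fold change with its standard error, and CPM values are scaled by TMM. Counts were simulated for co-cultured against solo knockout over 16768 genes and filtered again. Of 100 genes changed by 1 log2 unit 51.0% were called, of 98 changed by 2 95.9%, and of 16083 unchanged genes 0.0497%. The simulated counts had no GC trend between libraries and, apart from the changed genes, no difference between groups. These shares therefore need not hold for the libraries themselves. GC offsets were natural splines with 6 degrees of freedom of each gene's deviation against exon GC content, fitted per library either from the mean of all 12 libraries or from the group mean. The alternatives also covered library scaling, DESeq2 1.42.0, no low-count filter, only the groups compared, the replicate number as a block and each library left out. Replicates of 1 group differed by 8.77 to 130 in a chi-square statistic per gene, where counting noise gives 1. Each library was counted once, and this statistic cannot show whether the libraries came from separate cultures. CHR and CCAAT letters were searched on both strands.

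The members and lists were chosen with earlier results of these data known. Named members are 8 set genes, in each role the member with the smallest p for solo knockout against solo control and the 2 with the smallest p for co-cultured against solo knockout, and the genes of lowest and highest GC content. Of the other mitotic genes, the 2 per sublist with the smallest p for co-cultured against solo knockout are named. SPC24, as the fourth subunit of its complex, was added after its values were seen.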

Additional observations from a re-analysis of the deposited data

Results flagged for a closer look

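The co-culture difference in the knockout was more negative than that in the control, by the test of the interaction, for 7 of the 53 genes. The edit of TYMS, other differences between the 2 populations and the partner of the co-culture cannot be told apart here. MKI67 had -1.41 on the log2 scale (0.0419), with a co-culture difference of -1.78 in the knockout and -0.37 in the control. BUB1 had -1.69 (0.046), from -1.60 and 0.08. The B-type cyclins CCNB1 and CCNB2 had -1.17 (0.0112) and -1.34 (0.0204), from -1.02 and -1.05 in the knockout and 0.15 and 0.29 in the control. CDC20 had -1.21 (0.0473), from -1.28 and -0.07. The spindle genes TPX2 and KIF20A had -1.11 (0.024) and -1.01 (0.0262), from -1.03 and -0.97 in the knockout and 0.08 and 0.04 in the control. The values in brackets are adjusted p-values of the edgeR quasi-likelihood test. Only the call of CCNB1 held with each library left out in turn. That of BUB1 was lost without replicate 2 or 3 of the solo control, replicate 1 or 2 of the co-cultured control, replicate 1, 2 or 3 of the solo knockout or replicate 1 or 2 of the co-cultured knockout (edgeR adjusted p = 0.0884 to 0.151). That of CCNB2 was lost without replicate 2 or 3 of the solo control, replicate 2 of the co-cultured control, replicate 1 or 2 of the solo knockout or replicate 1 of the co-cultured knockout (edgeR adjusted p = 0.0545 to 0.0746). That of CDC20 was lost without replicate 1, 2 or 3 of the solo control, replicate 1, 2 or 3 of the co-cultured control, replicate 2 or 3 of the solo knockout or replicate 1 of the co-cultured knockout (edgeR adjusted p = 0.0568 to 0.139). That of TPX2 was lost without replicate 3 of the solo control, replicate 1 or 2 of the co-cultured control, replicate 1, 2 or 3 of the solo knockout or replicate 1 or 2 of the co-cultured knockout (edgeR adjusted p = 0.0561 to 0.0808), that of KIF20A without replicate 2 or 3 of the solo control, replicate 1 or 2 of the co-cultured control, replicate 1 or 2 of the solo knockout or replicate 1 or 2 of the co-cultured knockout (edgeR adjusted p = 0.062 to 0.0964), and that of MKI67 without replicate 2 or 3 of the solo control, replicate 1, 2 or 3 of the co-cultured control, replicate 1, 2 or 3 of the solo knockout or replicate 1 or 2 of the co-cultured knockout (edgeR adjusted p = 0.0556 to 0.143).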

How the results depend on the processing

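Each named gene called in the fit reported was counted once per alternative fit. Direction and call were kept in 499 such pairs of gene and fit for solo knockout against solo control and 658 for co-cultured against solo knockout. They were kept in 732 pairs between the co-cultured groups and 100 for the interaction. The call alone was lost in 24, 119, 24 and 100 pairs. INCENP changed sign, to 0.22 with GC offsets alone and with the replicate block added. The losses given gene by gene above are mainly those with a library left out, and some calls were lost in other alternatives as well. The median of the 53 genes for solo knockout against solo control became 0.054 when only library size was used for scaling. Without replicate 1 of the solo control it was 0.012, and over the fits that left out 1 library it ran from -0.20 to 0.012. All genes called for co-cultured against solo knockout, 1907 in the fit reported, were 3347 with DESeq2, 4850 with GC offsets, 4127 with GC offsets and the replicate block, 6013 with within-group GC offsets, 3340 without the low-count filter, 664 with only the groups compared, 1080 with the replicate block and 536 to 5680 with a library left out. The 53 genes had 14 calls there with only the groups compared and 13 to 38 with a library left out. For the interaction, 301 genes became 877, 1348, 822, 4371, 1342 and 179 with DESeq2, GC offsets, GC offsets and block, within-group GC offsets, no filter and block, and 119 to 3623 with a library left out. In the same order the 7 of the 53 became 14, 26, 21, 29, 20 and 2, and 1 to 27. For co-culture of the control, 2 genes were called without the filter and 174 with within-group GC offsets. The rho of fold change with GC content over the 53 genes was -0.58 with the mean GC of transcripts and -0.14 with GC offsets for solo knockout against solo control. With GC offsets it went from 0.51 to 0.24 for co-cultured against solo knockout, rose from 0.38 to 0.65 for co-culture of the control, and changed sign from 0.29 to -0.10 for the interaction. Fewer libraries or genes enter the fits that leave some out, and for the rest the cause was not tested. Same-numbered libraries of different groups had correlations of their deviations from -0.60 to 0.49, and the fit reported did not pair them. The lowest of these values were with the co-cultured knockout. Between the solo control and the solo knockout, replicates 1, 2 and 3 had 0.49, -0.02 and 0.38. Whether the number marks a batch shared by some of the groups was not tested. With the replicate block the 53 genes had 25 calls for co-cultured against solo knockout. Depth limits genes such as CENPE, with as few as 6 counts in a library.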

Other observations

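Spearman's rho over the 53 genes was -0.53 between exon length and the log2 fold change for co-cultured against solo knockout, and 0.45 for solo knockout against solo control. It was 0.095 between the co-cultured groups, -0.33 for co-culture of the control and -0.38 for the interaction. With GC offsets the values of the first 2 comparisons were -0.49 and 0.36. The genes share their libraries, so these values are a description.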
